A study of Ovis aries with 4 samples.

Results

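Immune receptor, cytokine and interferon genes were examined for peaks of N6-methyladenosine (m6A), the most frequent internal modification of messenger RNA, in the ovaries of Cele black sheep at 2 ages. The genes were chosen by name, and this choice was made with earlier results of these data known. The names covered interleukins, chemokines, tumour necrosis factor (TNF) genes and interferon genes, with their receptors, and interferon regulatory factors. They also covered Toll-like receptors, NLRC genes, beta-defensins and CD antigens, leaving out the macrophage genes CD68 and CD86. Of 5261 genes with a peak in either list, 59 matched, with 46 young peaks in 43 genes and 42 aged peaks in 35 genes. The young sheep were 1 to 2 years old and the aged sheep 5 to 6 years old, and no other treatment or genotype is labelled. At each age, RNA of whole ovarian tissue was immunoprecipitated with an antibody against m6A beside an input library taken without antibody, which makes 4 samples and 1 peak list per age. Peaks are transcript regions with more reads in the immunoprecipitate than in the input. The authors' table gives each of them a fold enrichment, a p-value and its adjusted value. The sources used here do not say whether a sample pooled animals. With 1 list per age there is no replicate check and no test between ages, and intervals are Wilson 95% intervals for counting error only.

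Cytokines and chemokines are secreted signals that bind receptors on leukocytes and tissue cells. Many interleukin receptors, though not all, and the interferon receptors act mainly through JAK kinases and STAT factors. TNF receptors and Toll-like receptors act mainly through NF-kB. Immune cells reside in the ovarian stroma and take part in ovulation, in the removal of dying follicles and in the regression of the corpus luteum. m6A lies mostly near stop codons and in 3' UTRs, and it is read by proteins that act on translation and decay of the transcript. The files give no depth, and values of the inputs were not used here, so a gene without a peak can be unmethylated, little expressed or below detection. Ovarian tissue is a mixture, and fewer cells of a type and less RNA per cell cannot be told apart.

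With the lists as deposited, the split of the immune genes was close to that of all genes. Of the 59 genes, 24 had peaks in only the young list (40.7%, interval 29.1 to 53.4, against 41.3% of all genes with a peak). A further 16 had peaks in only the aged list (27.1%, 17.4 to 39.6, against 26.9%), and 19 had a peak in both (32.2%, 21.7 to 44.9, against 31.8%). These counts describe the lists and do not show gain or loss of methylation. With only peaks of at least 2-fold, 32 immune genes kept a peak, and their split is given beside that of all 3159 genes with such a peak. Of the 32 genes, 13 were young-only (40.6%, interval 25.5 to 57.7, against 54.7%), 14 aged-only (43.8%, 28.2 to 60.7, against 26.1%) and 5 shared (15.6%, 6.86 to 31.8, against 19.1%). Only the interval of the aged-only share left out the share of all genes, and narrowly. At that setting 7 of the 19 shared genes were aged-only, 1 was young-only and 6 had no peak. The 14 aged-only genes thus include 7 with a young peak below the cut, with young folds from 1.55 (CD72) to 1.94 (CD44). Of the 14, DEFB124 had an adjusted p of 0.10 and IL17D of 0.0105. Only CCL25, CD2BP2, TLR6, TNFAIP8L1 and TNFSF10 had a peak of at least 2-fold at both ages.

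A sheep gene table holds 286 protein-coding genes with such names, and 20.6% of them (59 genes, interval 16.3 to 25.7) had a peak in either list, against 24.5% of all protein-coding genes of the table. CD antigens had a peak in 21 of 68 genes (interval 21.2% to 42.6%), interleukins and their receptors in 13 of 84 (9.27% to 24.7%), chemokines and their receptors in 7 of 35 (10.04% to 35.9%), and TNF ligands and receptors in 6 of 28 (10.2% to 39.5%). TNF-induced proteins had a peak in 4 of 7 genes (25.05% to 84.2%) and defensins in 1 of 15 (1.19% to 29.8%). Toll-like receptors and NLRC genes had a peak in 4 of 13 genes (12.7% to 57.6%), all of them Toll-like receptors. Most of these intervals overlap, but that of the TNF-induced proteins lies just above that of the interleukins and their receptors. Differences between the classes were not tested. Few interferon genes are part of the set. None of 11 genes for interferons and their receptors had a peak, where 3 counts would be 27.3%, and 1 of 13 interferon-induced genes and 2 of 12 genes named for interferon regulatory factors had one. The label of interferon genes thus rests on 3 genes, 1 of which, IRF2BP2, matches by spelling only.

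**Figure D1:**
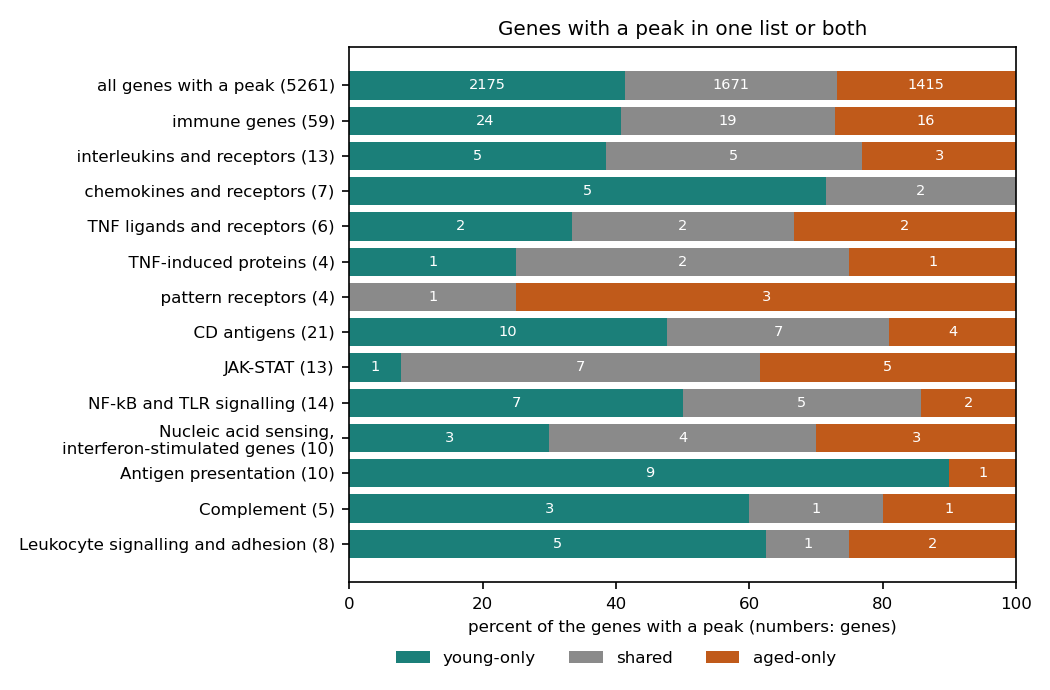
Bars give how the genes with a peak divide into young-only, shared and aged-only ones, in percent, for all genes, the immune genes, 6 of their classes and 6 related gene lists, with the number of genes printed in each part and the total in brackets. The immune genes as a whole (24, 19 and 16) divide much as all genes do, and the classes and lists hold 4 to 21 genes each.

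Counts for ligands and receptors are given side by side, in a grouping made after the values had been seen. Receptors were the cytokine, chemokine and TNF receptor genes and the Toll-like receptors, which bind microbial molecules and none of these ligands. Of 12 ligand genes (interleukins, chemokines and TNF ligands), 0 were aged-only, 6 young-only and 6 shared, against 26.9% aged-only among all genes. A count of 0 among 12 allows a share of up to 25% by counting error alone, little below that of all genes. Of 17 receptor genes, 8 were aged-only, 5 young-only and 4 shared, against 26.9%, 41.3% and 31.8% of all genes. Without the Toll-like receptors, 5 of 13 were aged-only, 5 young-only and 3 shared. Of the 3 aged-only Toll-like receptors, TLR3 had an adjusted p of 0.104, and the call of TLR1 is uncertain, as described with that gene. With only peaks of at least 2-fold, 1 of 7 ligand genes and 5 of 10 receptor genes were aged-only. Without the Toll-like receptors, 3 of 7 receptor genes were. Of all 3159 genes with such a peak, 26.1% were aged-only. Equal list lengths also gave 1 aged-only ligand gene, IL17D, whose young peaks were among the least significant of the immune genes. The difference between ligands and receptors was not tested.

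Among interleukin ligands, IL16, IL17D and IL34 had peaks at both ages. IL16 encodes the precursor of a chemoattractant for CD4+ cells. Its young peak, on chromosome 18 (24912843 to 24913090, plus strand, 3' UTR), had a fold of 3.67 and a log10 p of -14.3, the highest fold of the immune genes in the young list. The aged IL16 peak (24912892 to 24913090) had the same 3' boundary, a fold of 1.58 and a log10 p of -8.34. IL16 thus stood at percentile 96.4 of all young folds and at percentile 13.8 of all aged folds. IL17D, a cytokine of the interleukin 17 family on chromosome 10, had the higher fold in the aged list. Its young peaks were a stop codon peak (36056125 to 36056325, fold 1.58, log10 p -6.72) and a 3' UTR peak (36056825 to 36057025, fold 1.84, log10 p -9.44). The aged IL17D peak (36056825 to 36056975) had a fold of 2.87, but its log10 p was -2.48 and its adjusted p 0.0105. IL34, a second ligand of the macrophage growth factor receptor CSF1R, had 3' UTR peaks on chromosome 14 with folds of 1.50 in the young list (1008772 to 1008921, log10 p -24.6) and 1.75 in the aged list (1008871 to 1009020, log10 p -6.54).

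In 2 receptors the partner subunits were listed at different ages. IL6ST, the signalling subunit shared by receptors of the interleukin 6 family, was young-only with a 3' UTR peak on chromosome 16 (23434850 to 23434999, fold 3.00, log10 p -10.8). IL6R, the ligand-binding subunit, was aged-only with a 3' UTR peak on chromosome 1 (104699416 to 104699614, fold 1.52, log10 p -5.31), which lay beyond the end of IL6R in the gene table. IL20RB was young-only, with a stop codon peak on chromosome 1 (252830284 to 252830432, fold 2.50, log10 p -18). Its partner subunit IL20RA was aged-only, with a 3' UTR peak on chromosome 8 (62262562 to 62262810, fold 2.33, log10 p -12.2). The listed age thus differed within both pairs. Single-list genes were common, with 41.3% of the 5261 genes in the young list alone and 26.9% in the aged list alone. The 2 splits were not tested against these shares and are not read as a feature of the receptors. The IL6R fold was also near the lowest listed fold of 1.50, and the assignment of its peak to that gene is uncertain.

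IL4R, the alpha subunit of the interleukin 4 receptor, was shared. Its young stop codon peak on chromosome 24 (25442035 to 25442185) had a fold of 1.64 and a log10 p of -18.7, and its aged 3' UTR peak (25441985 to 25442135) a fold of 1.76 and a log10 p of -23.9. It was the only shared gene whose overlapping aged peak had the lower p-value. Its partner subunits were young-only: IL13RA1 on chromosome X (115623709 to 115623857, stop codon, fold 1.56, log10 p -27.7) and the common gamma chain gene IL2RG, also on chromosome X (63821706 to 63821853, stop codon, fold 2.00, log10 p -24.9). IL10RB, a subunit used by several receptors of the interleukin 10 family, was shared on chromosome 1. Its young stop codon peak (122946973 to 122947170) had a fold of 1.59 and the lowest p-value of the immune genes, with a log10 p of -46.2. The aged IL10RB peak (122947022 to 122947466, 3' UTR) had a fold of 1.55 and a log10 p of -7.58. IL17RB, a receptor of the interleukin 17 family, was aged-only with 2 separate 3' UTR peaks on chromosome 19 (47153713 to 47153862, fold 1.60, and 47154011 to 47154160, fold 1.75), both with a log10 p of -14.2. IL4I1, named for its induction by interleukin 4 but encoding an amino acid oxidase, was young-only on chromosome 14 (55969056 to 55969204, stop codon, fold 2.03, log10 p -33.7).

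Of 7 chemokine and chemokine receptor genes, 0 were aged-only, against 26.9% of all genes, 2 were shared (31.8%) and 5 young-only (41.3%). A count of 0 among 7 allows a share of up to 42.9%, so the 0 is not distinguishable from the share of all genes. CXCR6, a chemokine receptor of T cells, was young-only with a 3' UTR peak on chromosome 19 (53367969 to 53368118, fold 2.80, log10 p -44.9), the second lowest p-value of the set. The gene of its ligand, CXCL16, was young-only as well, with a 3' UTR peak that crossed an intron on chromosome 11 (26499616 to 26500193, fold 1.86, log10 p -11.2). Receptor and ligand were therefore listed at the same age. CXCL12, a chemokine of stromal cells, was young-only on chromosome 25 (43906894 to 43907192, 3' UTR, fold 1.67, log10 p -17.5). CCL21, which guides lymphocytes and dendritic cells, and CCL27 lay close together on chromosome 2, 3 places apart in the order of protein-coding genes, and both were young-only with stop codon peaks. The CCL21 peak (36863052 to 36863196) had a fold of 1.74 and a log10 p of -25.1, and the CCL27 peak (36905974 to 36906415) a fold of 2.00 and a log10 p of -15.5.

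CCL25 and CXCL9 were the shared chemokines. CCL25, a chemokine known from thymus and gut, had a 5' UTR peak with identical boundaries at both ages on chromosome 5 (14509559 to 14509707), with a young fold of 2.83 (log10 p -10.1) and an aged fold of 2.09 (log10 p -4.56). CXCL9, a chemokine induced by interferon gamma, had 3' UTR peaks that crossed an intron on chromosome 6, with folds of 1.57 (91613971 to 91615656, log10 p -36.1) and 1.50 (91614020 to 91615656, log10 p -5.84). The aged fold of CXCL9 lay at the lowest value in the deposited lists.

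TNF ligand genes had some of the higher young folds. TNFSF10, the death ligand TRAIL, had a young 3' UTR peak on chromosome 1 (215701828 to 215702027) with a fold of 3.40 and a log10 p of -14.2. In the aged list it had 2 peaks, 1 overlapping the young one (215701729 to 215701977, fold 2.00) and 1 upstream (215701281 to 215701579, fold 1.80), both with a log10 p of -4.22. TNFSF8, the ligand of the receptor CD30, was young-only on chromosome 2 (8884401 to 8884651, 3' UTR, fold 2.92, log10 p -12.6). TNFSF13, a survival factor of B and plasma cells, was young-only with a fold of 2.00 and a stop codon peak. Of the receptors, TNFRSF18, a co-stimulatory receptor of T cells, and TNFRSF1B, the second TNF receptor, were aged-only with folds of 2.09 and 1.87. TNFRSF19 was shared, with 3' UTR peaks on chromosome 10 of 1.80 (34653203 to 34653453, log10 p -14) and 2.03 (34653103 to 34653552, log10 p -8.41), the aged peak extending past the young one on both sides.

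All 4 genes of the TNFAIP8 family, which encode lipid-binding regulators of cell survival and immune restraint, had a peak. All 4 are counted here among the names matched by spelling only. TNFAIP8L1 had 2 young 3' UTR peaks on chromosome 5, with folds of 3.44 (17304156 to 17304305, log10 p -12.1) and 2.91 (17302621 to 17302968, log10 p -12). Its aged peak (17302621 to 17302919, fold 2.04, log10 p -8.93) overlapped the second of these. TNFAIP8L2, a brake on Toll-like and T cell receptor signalling, had stop codon peaks at both ages that ended at the same base of chromosome 1, with folds of 1.86 (101056811 to 101056959, log10 p -13.6) and 1.90 (101056563 to 101056959, log10 p -11.9). TNFAIP8L3 was aged-only with 3 peaks on chromosome 7, with folds of 1.63 (57517162 to 57517709, 3' UTR, log10 p -2.37, adjusted p 0.0132), 1.54 (57517858 to 57518008, 3' UTR, log10 p -8.63) and 1.86 (57518306 to 57518555, stop codon, log10 p -8.63). TNFAIP8 itself was young-only with a 3' UTR peak and a fold of 2.00. The family thus held each kind of gene, 1 young-only, 2 shared and 1 aged-only.

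Of 4 Toll-like receptor genes with a peak, 1 was shared, 3 were aged-only and 0 young-only, against 31.8%, 26.9% and 41.3% of all genes. With 4 genes these counts are too small to set against those shares. TLR6, which pairs with TLR2 to sense bacterial lipopeptides, was shared, with peaks labelled exon on chromosome 6 and folds of 2.12 (58783520 to 58783668, log10 p -13.4) in the young and 2.67 (58783471 to 58783619, log10 p -8.73) in the aged list. TLR1, the alternative partner of TLR2, is the next protein-coding gene to TLR6 and was aged-only (58754144 to 58754294, 3' UTR, fold 2.37, log10 p -4.26). TLR2 was aged-only on chromosome 17 (4183203 to 4183352, 3' UTR, fold 2.42, log10 p -5.57). TLR3, a receptor of double-stranded RNA, was aged-only on chromosome 26 (15371750 to 15371949, exon, fold 1.60, log10 p -2.08) with an adjusted p of 0.104. The adjusted p of TLR3 was the highest of all immune gene peaks. TLR1 and TLR6 are close paralogs, and an unnamed gene with the deposited symbol TLR1 had a young-only peak (fold 1.87). How the authors divided reads between such copies is not given in the sources used here, so the aged-only call of TLR1 is uncertain.

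Of interferon-related genes, IFIH1, the RNA sensor MDA5, was young-only with a stop codon peak on chromosome 2 (147546399 to 147546647, fold 2.43, log10 p -33.5). IRF2, a regulator of interferon-responsive promoters, was aged-only with a stop codon peak on chromosome 26 that spanned 31071 bases from end to end, introns included (14052647 to 14083717, fold 2.43, log10 p -2.84). IRF2BP2, which encodes a corepressor that binds IRF2, was aged-only too (3' UTR, fold 1.70). The defensin gene DEFB124 had the highest aged fold of the set, 4.67, on chromosome 13 (60736436 to 60736577, 3' UTR), but a log10 p of only -2.10 and an adjusted p of 0.10. DEFB124 thus led the aged immune genes by fold and was near the bottom by significance.

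**Figure D2:**
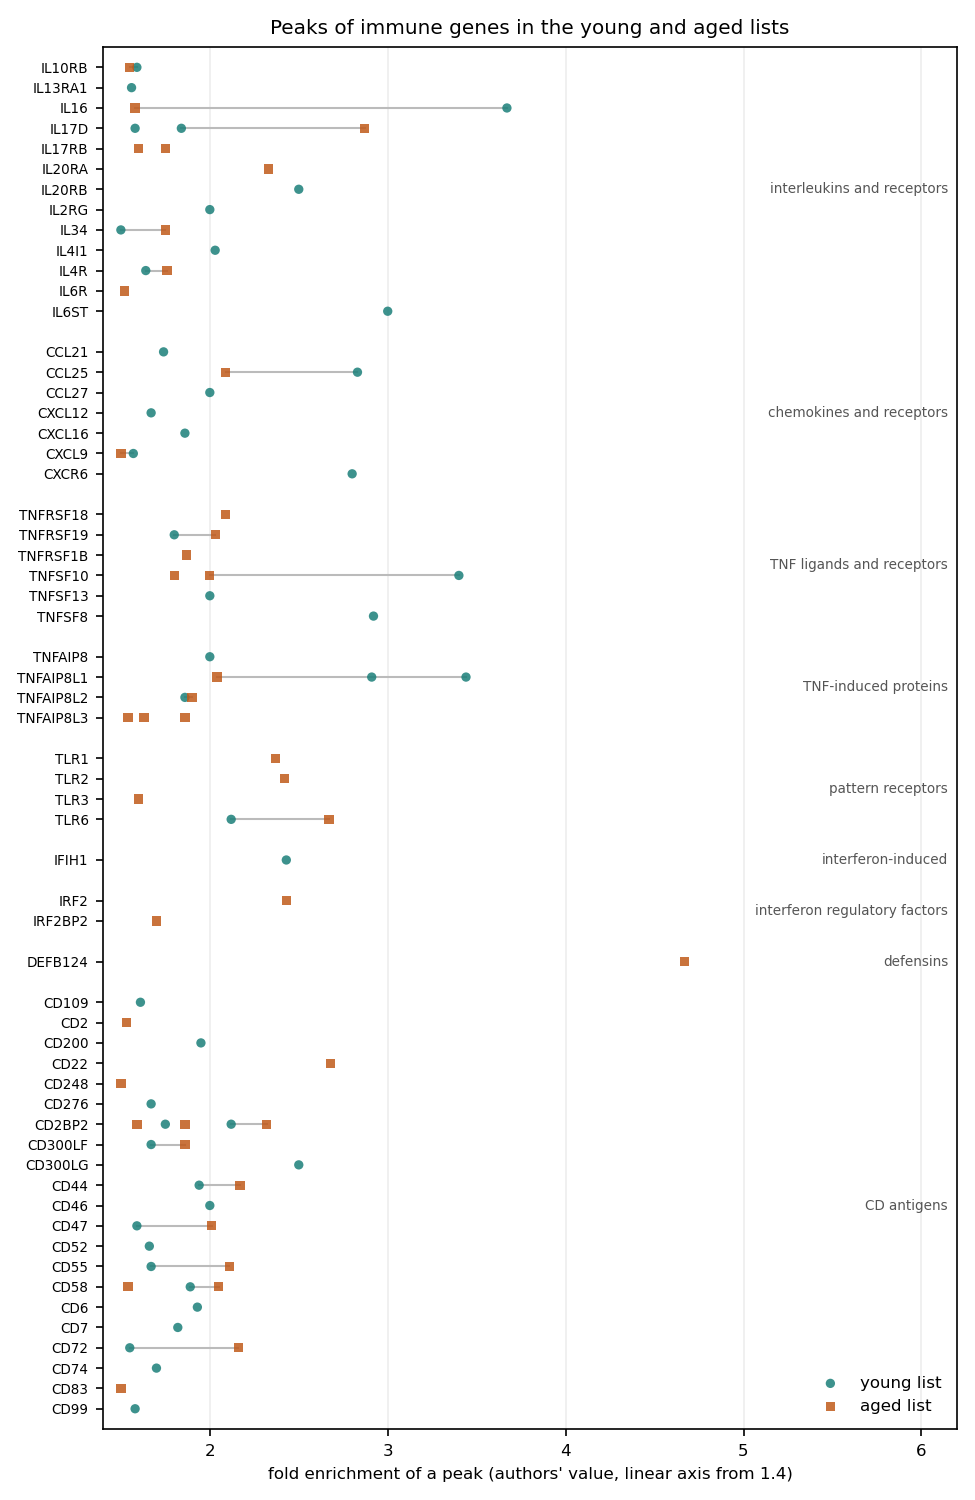
Each point is 1 peak of an immune gene, with the authors' fold enrichment on a linear axis that starts at 1.4. Circles are young and squares aged peaks, and a line joins the highest young and the highest aged fold of a shared gene. Most peaks lie below 2.5, with IL16, TNFAIP8L1 and TNFSF10 highest in the young list and DEFB124 in the aged list.

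CD antigens were the largest class, with 10 young-only, 7 shared and 4 aged-only genes. These were 47.6%, 33.3% and 19.0% of the class, against 41.3%, 31.8% and 26.9% of all genes. Genes of T cell surface proteins were on either side. CD6 (1.93) and CD7 (1.82) were young-only, and CD2 (1.53), a T cell adhesion receptor, was aged-only. CD58, which encodes the ligand of CD2 and lies 2 places from CD2 in the gene order of chromosome 1, was shared. Its young stop codon peak (93869323 to 93869472) had a fold of 1.89 and a log10 p of -25.1. It had 2 aged 3' UTR peaks, 1 overlapping the young one (93869373 to 93869672, fold 2.05, log10 p -8.57) and 1 upstream (93889149 to 93889547, fold 1.54, log10 p -3.40).

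CD22 and CD72 encode surface proteins of B cells. CD22, an inhibitory receptor of B cells, was aged-only on chromosome 14 (45334809 to 45335008, stop codon, fold 2.68, log10 p -24.2), at percentile 89.4 of aged folds. CD72, another inhibitory B cell receptor, was shared on chromosome 2, with folds of 1.55 (52914881 to 52915030, log10 p -30) and 2.16 (52914832 to 52915030, log10 p -26.7), both peaks labelled stop codon and ending at the same base. Its aged log10 p was the lowest of the immune genes in the aged list, and that of CD22 followed. Of the marker list for B and plasma cells, which does not hold CD72, CD22 and the young-only plasma cell gene JCHAIN (4.25) had a peak.

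Of the complement inhibitor genes, CD55 was shared and CD46 young-only. CD55, which encodes an inhibitor of complement on the cell surface, had 3' UTR peaks on chromosome 12 with folds of 1.67 (5148663 to 5148812, log10 p -14.1) and 2.11 (5148663 to 5148961, log10 p -11.4). The CD46 peak had a fold of 2.00. CD47 and CD44 were shared. CD47, the signal against phagocytosis, had 3' UTR peaks crossing an intron on chromosome 1, with folds of 1.59 (173769714 to 173770411, log10 p -14.4) and 2.01 (173769764 to 173771900, log10 p -9.93). CD44, the hyaluronan receptor, had a young 3' UTR peak (64546238 to 64546435, fold 1.94, log10 p -39.2) and an aged stop codon peak (64546337 to 64546534, fold 2.17, log10 p -5.58) on chromosome 15. The overlapping aged peaks of CD55, CD47 and CD44 thus had the higher fold but the weaker p-value.

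Further CD antigens of leukocytes and of other cells were young-only, shared or aged-only. CD300LF, an inhibitory receptor of myeloid cells, was shared on chromosome 11 with folds of 1.67 (56029517 to 56029665, stop codon, log10 p -44.5) and 1.86 (56029419 to 56029566, 3' UTR, log10 p -4.02). CD300LG, which is found on endothelium, was young-only with a peak labelled exon and a fold of 2.50. CD74, the invariant chain of MHC class II, was young-only (1.70), as were CD52 (1.66), the immune checkpoint genes CD200 (1.95) and CD276 (1.67), and CD109 (1.61). CD83, a marker of mature dendritic cells, and CD248, the endosialin of stromal and perivascular cells, were aged-only, both with a fold of 1.50. CD2BP2 matched the rule by spelling only, since it encodes a splicing factor that can bind the tail of CD2. It had young peaks labelled exon (27061527 to 27061757, fold 1.75, log10 p -11.4) and 5' UTR (27065028 to 27065274, fold 2.12, log10 p -10.3) on chromosome 24. The aged list had the second of these with identical boundaries (fold 2.32, log10 p -7.34) and 2 more 5' UTR peaks of CD2BP2 (27062285 to 27063540, fold 1.86, log10 p -9.61, and 27064781 to 27064929, fold 1.59, log10 p -7.34).

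CD99, a leukocyte adhesion gene on chromosome X, was young-only by name (6029505 to 6029844, stop codon, fold 1.58, log10 p -34.5). Its young peak overlapped by 265 bases an aged peak that the authors assigned to the related gene XG (6029580 to 6029879, fold 1.50). The young-only call of CD99 therefore rests on the gene to which each list assigned this stretch.

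The folds of the immune genes were lower than those of all peaks in the young list. Young immune peaks had folds from 1.50 to 3.67 with a median of 1.875, against 2.05 over all young peaks, and 41.3% of them (19 of 46, interval 28.3 to 55.7) reached 2-fold, against 58.3% of all young peaks. Aged immune peaks had folds from 1.50 to 4.67 with a median of 1.865, against 1.88, and 45.2% (19 of 42, interval 31.2 to 60.1) reached 2-fold, against 42.7%. By the highest fold of each gene, the immune medians were 1.89 young and 2.01 aged, against 2.11 and 1.93 over all genes. Without the names matched by spelling only, the medians of immune peaks were 1.84 young and 2.00 aged. The median log10 p was -18.4 for young and -7.34 for aged immune peaks, against -15.3 and -6.22 over all peaks. Young immune peaks were thus of lower fold but not of weaker p-value than the whole list. All young immune peaks had an adjusted p of at most 2.29e-07, and all but 4 aged ones of at most 0.00468.

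**Figure D3:**
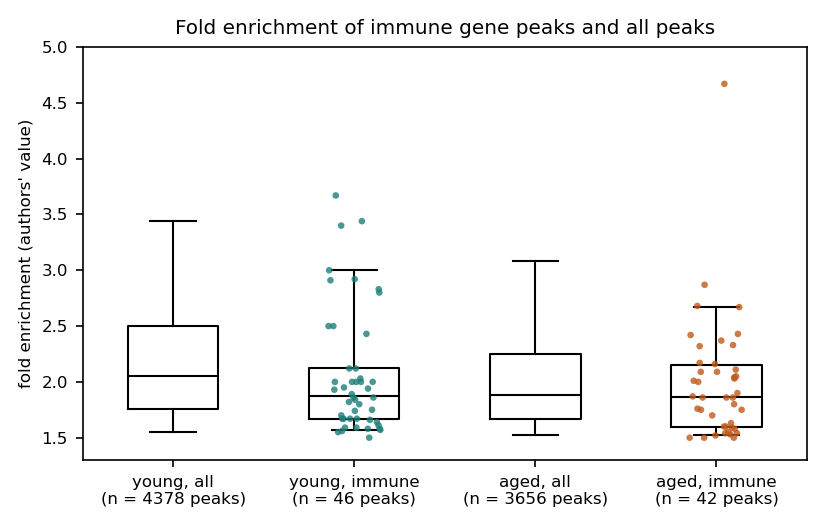
The authors' fold enrichment is shown for all peaks and for immune gene peaks of each list, with a box from the first to the third quartile, a line at the median and whiskers from the 5th to the 95th percentile. Points are the 46 young and 42 aged immune gene peaks, whose medians are 1.875 and 1.865.

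In all 19 shared genes a young and an aged peak shared at least 1 base on the same strand, against 84.1% of all 1671 shared genes. No interval was computed for these 19 genes, and this contrast was not tested. Of the young immune peaks, 20 of 46 (43.5%, interval 30.2 to 57.8) overlapped an aged peak, against 34.3% of all young peaks, and the CD99 peak was the only one of them that lay on another gene. Of the aged immune peaks, 19 of 42 (45.2%, 31.2 to 60.1) overlapped a young one, against 41.0%. Overlap was taken from end to end, introns included. Among the 19 overlapping pairs the median young fold was 1.84 and the median aged fold 2.03, with the higher value in the aged list for 13 pairs and in the young list for 6. Over all 1530 overlapping pairs the medians were 2.09 and 2.00, and the young value was the higher in 56.3%. The 6 pairs with the higher young fold were those of IL16, TNFSF10, TNFAIP8L1, CCL25, CXCL9 and IL10RB. Since depth is unknown, folds of the lists are set side by side and not read as change.

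The overlapping peaks were offset from each other in a few regular steps. Of the 19 pairs, 7 had the same 3' boundary, 7 had boundaries 40 to 60 bases apart and 5 lay further apart, up to 149 bases in CD55. The aged boundary lay upstream of the young one in 8 pairs and downstream in 4. CCL25 and CD2BP2 had identical boundaries on both sides. On the minus strand 5 of 10 aged boundaries lay upstream, against 66.6% of all minus-strand pairs, and on the plus strand 3 of 9, against 21.5%. The label was the same in 14 pairs. It was stop codon in the young and 3' UTR in the aged list for CD300LF, IL4R, CD58 and IL10RB, and in these 4 genes the aged boundary lay 99, 50, 50 and 49 bases upstream. CD44 had the labels the other way round, with its aged boundary 99 bases downstream.

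**Figure D4:**
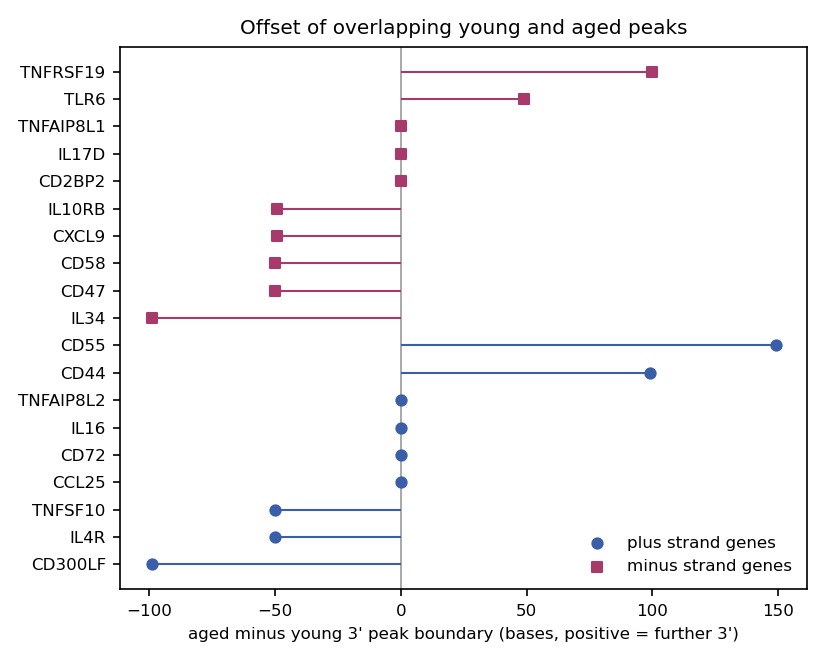
For each of the 19 overlapping pairs, the distance in bases from the 3' boundary of the young peak to that of the aged peak is drawn along the transcript, with positive values further 3'. Circles are plus-strand and squares minus-strand genes, and 7 pairs lie at 0 while the others reach from 99 bases upstream (IL34, CD300LF) to 149 bases downstream (CD55).

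Feature labels of the immune peaks were close to those of their lists. Of the young immune peaks, 45.7% (21 of 46) were labelled 3' UTR and 43.5% (20) stop codon, against 47.3% and 41.3% of all young peaks. Of the aged ones, 69.0% (29 of 42) were labelled 3' UTR and 16.7% (7) stop codon, against 66.4% and 15.3%. Only CD2BP2, CD300LG and TLR6 in the young list and TLR3 and TLR6 in the aged list had peaks labelled exon. The 5' UTR label fell on 2 young and 4 aged peaks, all of them in CCL25 and CD2BP2. Of aged immune peaks on the minus strand, 1 of 24 (IRF2) was labelled stop codon, against 6 of 18 on the plus strand, and the shares over all aged peaks were 2.58% and 27.5%.

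The table's gene end was the 3' boundary of many young immune peaks. It was so for 41.3% of them (19 of 46, interval 28.3 to 55.7), against 29.2% of all young peaks, and for 9.52% of the aged ones (4 of 42, 3.77 to 22.1), against 9.05%. All of these 19 young and 4 aged peaks carried the stop codon label, so that the label is not read as the position of a stop codon. CD99 in the young list and CD44, IRF2 and TNFAIP8L3 in the aged list were the genes with a stop codon peak that did not end there. Peaks that lay within an intact stretch, not crossing an intron, made up 41 young and 38 aged immune peaks. Intron crossings were found in 10.9% of the young immune peaks and 9.52% of the aged ones, against 16.9% and 22.5% of all peaks.

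**Figure D5:**
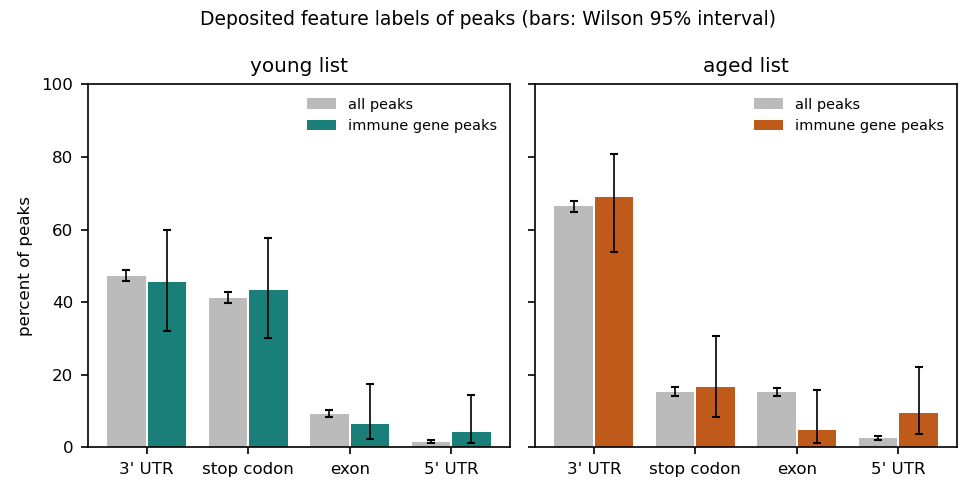
Bars give the percent of peaks with each deposited feature label in the young and aged lists, for all peaks (grey) and immune gene peaks (coloured), with Wilson 95% intervals. The young immune peaks are near 45.7% 3' UTR and 43.5% stop codon, the aged ones near 69.0% and 16.7%.

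Genes of pathways tied to these receptors, not all of them downstream, were counted from related lists. The JAK-STAT list also holds cytokine receptor genes, such as CSF2RB. The lists were chosen with earlier results of these data known, and their splits were not tested. Of 30 listed JAK-STAT genes, 13 had a peak. Of these, 7 were shared, 5 aged-only and 1 young-only, against 31.8%, 26.9% and 41.3% of all genes. JAK2, a kinase of many cytokine receptors, had 1 young peak (2.50) and 2 aged peaks (highest 1.50), and PIAS1, a STAT inhibitor gene, had 1 young (1.64) and 2 aged peaks (highest 2.26). SOCS4 (2.60), of a family of cytokine signalling suppressors, and the receptor gene CSF2RB (1.86) were aged-only, and PIAS2 (2.00) was the young-only gene. Of 14 genes with a peak among 35 listed for NF-kB and Toll-like receptor signalling, 7 were young-only, 5 shared and 2 aged-only. IRAK4 (4.80), the kinase that starts signalling from Toll-like receptors, was young-only with 2 peaks. Its inhibitory relative IRAK3 (3.00) and the NF-kB inhibitor gene NFKBIB (2.33) were young-only too. The adaptor gene TRAF1 (1.92 young and 2.62 aged) and the NF-kB inhibitor gene NFKBIE (3.00 and 3.04) were shared. The Toll-like receptor genes and the genes of their pathway were not compared by a test.

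Of 21 listed antigen presentation genes, 10 had a peak. Of these 10, 9 were young-only, 1 aged-only and 0 shared, against 41.3%, 26.9% and 31.8% of all genes. The list was chosen with earlier results of these data known, and this difference in 10 genes was not tested. PSME1 (3.67), an activator of the proteasome, and CANX (3.54) and PDIA3 (3.00), chaperones of the endoplasmic reticulum that also help to load MHC class I, led the young-only genes. The aged-only gene was RFX5 (2.33). CD74 of the immune set, which is not on this list, was young-only. CALR, CANX and PDIA3 act on many other proteins besides MHC. Of 10 genes with a peak among 34 listed for nucleic acid sensing or as interferon-stimulated, 3 were young-only, 3 aged-only and 4 shared. SAMHD1 (3.00) and HERC6 (2.00) were young-only, PARP9 (2.17) aged-only, and CMPK2 (5.00 and 1.83) and the ubiquitin ligase gene TRIM25 (3.67 and 2.75, 2 peaks at each age) shared. Complement (5 of 24 genes with a peak) had 3 young-only genes, MASP1 (2.17), C7 (2.11) and C1QB (1.64), 1 aged-only gene, C1R, and the shared receptor gene C5AR1 (1.87 and 2.20). Leukocyte signalling and adhesion (8 of 26) had 5 young-only genes, among them the kinase gene LYN (2.67), ICAM1 (2.30) and the phosphatase gene PTPN6 (2.22), 2 aged-only and 1 shared, ICAM2 (1.90 and 2.09).

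Over 7 lists of leukocyte markers, 9 of 51 genes had a peak (17.6%, interval 9.57 to 30.3, against 24.5% of all protein-coding genes). Of 13 T cell markers, CD7 was young-only and CD2 aged-only, and of 8 B and plasma cell markers JCHAIN was young-only and CD22 aged-only. Macrophage markers had 4 of 11, with CD68 (1.60), MSR1 (2.00) and C1QB (1.64) young-only and AIF1 (1.54 and 1.71) shared. CD163 counts as without a peak by name, though an unnamed gene with that symbol had a young-only peak (1.87). Of 5 dendritic cell markers CD83 was aged-only. Markers of NK cells (5), neutrophils (5), mast cells (4) and erythroid cells (4) had none. Of the ovary's own cells, 3 of 6 granulosa markers had a peak, FSHR (1.60 and 2.54) and INHBB (3.33 and 1.85) at both ages and INHBA (2.67) in the young list. Stromal markers had 5 of 6, with COL1A2 (2.40), DCN (2.20) and DPT (3.60) young-only, PDGFRA (2.22) aged-only and COL1A1 (2.00 and 2.09) shared. Endothelial markers had 3 of 6, with PECAM1 (1.78) and KDR (2.13) aged-only and CLDN5 (1.50 and 1.54) shared. The part of leukocyte numbers in the immune gene peaks was not tested.

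The deposited annotation matched the names in part. The pathway term for cytokine and cytokine receptor interaction was carried by 25 of 59 immune genes and by 41 of all 5261 genes, 11 of the 25 young-only, 9 shared and 5 aged-only. No pathway term was given for 15 immune genes. The term plasma membrane was carried by 55.9% of the immune genes, against 18.6% of all genes. Of 14 immune genes with the term extracellular space, 9 were young-only, 5 shared and 0 aged-only. Of 10 with the term cytokine receptor activity, 5 were young-only, 2 shared and 3 aged-only, which is near the split of all genes. The shares over all genes were 41.3%, 31.8% and 26.9% in the same order. Counting error is large for so few genes, also for the count of 0, and the splits by term were not tested. These terms follow from the names that chose the genes and are no independent evidence.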

How the data were processed

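Per the labels' protocols, ovarian RNA was extracted with Trizol and sequenced from stranded total RNA libraries. The submitters' processing notes name ChIPseeker and DESeq2 without a stated role. The build, the aligner and the program that called peaks are not named in the sources used. Per the file headers, the authors give each peak a fold enrichment (a linear ratio), a p-value, an adjusted p-value, their log10 (treated as a score) and a width in bases (listed as another value). The deposited lists hold no fold below 1.50 and no p-value above 0.049. They give no counts, so depth is unknown.

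Starts were shifted by 1 base. Genes were chosen by deposited gene name, and a gene table of assembly ARS-UI_Ramb_v3.0, matched by identifier for 99.5% of peaks, gave chromosome numbers, gene order and gene ends. Overlapping peaks shared at least 1 base of the same strand, and the overlap code was tested on simulated peaks. Full values are given for genes with peaks at both ages, several peaks or the 5 highest folds of a list, and for interleukin, chemokine, interferon and pattern receptor genes. The others are named with their list. Of related lists, the 3 genes of 1 list with the highest fold and the 2 shared genes with the most peaks are named. Ties were broken by fold, then name. RFX5, C1R and every marker with a peak are named too. Genes and lists were chosen with earlier results of these data known. No sequences are shown, because no table of them was used here. Alternatives were a fold of at least 2, lists trimmed to equal lengths, a limit of 0.01 on the adjusted p, other overlap and label rules, and leaving out 7 names matched by spelling. The scripts ran under Python 3.11.15 with numpy 2.4.6 and pandas 2.3.3, with scipy 1.17.1 for intervals and matplotlib 3.10.9 for figures.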

Additional observations from a re-analysis of the deposited data

Results flagged for a closer look

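Among unnamed genes (LOC identifiers), which the choice by gene name leaves out, 7 had a peak and a deposited symbol that matches the immune gene names, so peaks of this kind lie outside the 59 genes. They were 2 genes with the symbol CD36, a scavenger receptor (1 shared with folds of 2.78 and 1.95, 1 aged-only with 2.33), CD1A (2.00), CCL23 (2.53), CD163 (1.87) and TLR1 (1.87), all 4 young-only, and CCL14 (2.13 and 1.80), which was shared. The CCL14 and CCL23 symbols add 1 shared and 1 young-only chemokine to the named ones, and the TLR1 symbol adds a young-only gene to the Toll-like receptors. Such genes can be copies of a named gene and are uncertain.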

How the results depend on the processing

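Of 37 values recomputed under other settings, 27 stayed within 1.5 times the count or within the 95% interval. With a fold of at least 2 the young-only genes numbered 13 and the shared genes 5, the overlap fell to 26.3% of both the young and the aged immune peaks, 1 ligand gene was aged-only and 5 receptor genes were. With exon and UTR labels only there were 12 young-only and 12 shared genes, since this leaves out the stop codon label. An overlap of 50% of both peaks lowered the aged share to 31.0%. With equal list lengths 1 ligand gene was aged-only. With LOC genes of a matching symbol, chosen after seeing the data like the ligand and receptor settings, the counts were 28 young-only, 17 aged-only and 21 shared. No paired analysis was possible because each age has 1 peak list and the labels give the ages different replicate numbers. Depth is unknown, and 4 aged immune peaks have an adjusted p above 0.01.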
